A study of Mus musculus with 12 samples.

Results

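T lymphocytes and natural killer (NK) cells were followed through 10 genes in the subcutaneous fat of the groin, labelled inguinal white adipose tissue (iWAT). The genes were Cd3e, Cd4, Cd8a, Ccr7, Lef1, Foxp3, Nkg7, Gzma, Gata3 and Il7r. They were chosen by name, and all 10 were found by mouse symbol among 33200 gene rows of the iWAT count table. The groups compared were Nrep-/- mice carrying a global knockout (KO) made by CRISPR/Cas editing, and wild-type (WT) C57BL/6 mice. All were 16 weeks old, free of specific pathogens, fed a maintenance diet and kept on a 12-h light/dark cycle. Which part of Nrep was deleted is not stated. Each group had 3 poly(A) RNA libraries described as biological replicates, so that cells of every type in the depot were read together, and the 6 liver libraries of the series were not analysed here.

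A T cell recognises antigen through its receptor, which signals through the CD3 chains, while CD4 or CD8 binds the class II or class I antigen-presenting molecule. Naive T cells circulate between blood and lymph nodes, regulatory T cells restrain immune responses, and cytotoxic T cells and NK cells kill targets with granule proteases. In adipose tissue, regulatory T cells and group 2 innate lymphoid cells are known for restraining inflammation, and the inguinal depot also encloses a lymph node. The labels do not say whether that node was removed at dissection.

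Estimated counts summed to 18973117, 19668020 and 19783453 in KO replicates 1, 2 and 3 and to 17970451, 20369345 and 20061936 in WT replicates 1, 2 and 3. Levels are given as CPM (counts scaled to a common library size), with trimmed-mean (TMM) scaling between libraries. Nrep itself had 2, 2 and 5 counts in KO libraries, against 1404, 1640 and 1300 in WT libraries, so the libraries carry their labelled genotype. The members held between 38 counts (Gata3 in KO replicate 3) and 3259 counts (Cd4 in KO replicate 2) per library, and all 10 passed the filter on low counts. All were detected in all 6 libraries, and the summed level of the 10 was 376, 704 and 222 CPM in KO replicates 1, 2 and 3, against 481, 555 and 594 CPM in WT replicates 1, 2 and 3.

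None of the 10 genes differed between genotypes beyond the spread of the replicates. Of the 10, 9 had a lower mean in KO than in WT, Gzma was near equal, and the KO and WT libraries of every member overlapped. The libraries differed more within the KO group, where the highest was 1.67 to 4.14 times the lowest, against 1.10 to 1.82 times within WT. For Gzma the 2 ranges were close, at 1.67 times in KO and 1.53 times in WT. KO replicate 2 was at or near the top of all 6 libraries, and KO replicate 3 was the lowest of the 6 for every member except Gzma. In edgeR's quasi-likelihood test 0 of 10 members passed an adjusted p of 0.05, with adjusted p-values of 0.426 to 0.931, and none had an unadjusted p under 0.05, against 22.6% of all genes. DESeq2 and limma-voom also called 0 members, against 10.9% and 0.0961% of all genes. Over all 16656 genes tested, 1.03% passed in edgeR, 0.865% higher and 0.162% lower in KO, and 28.3% had KO and WT libraries that did not overlap. The median log2 fold change was -0.28 over the members and -0.057 over all genes tested.

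**Figure D1:**
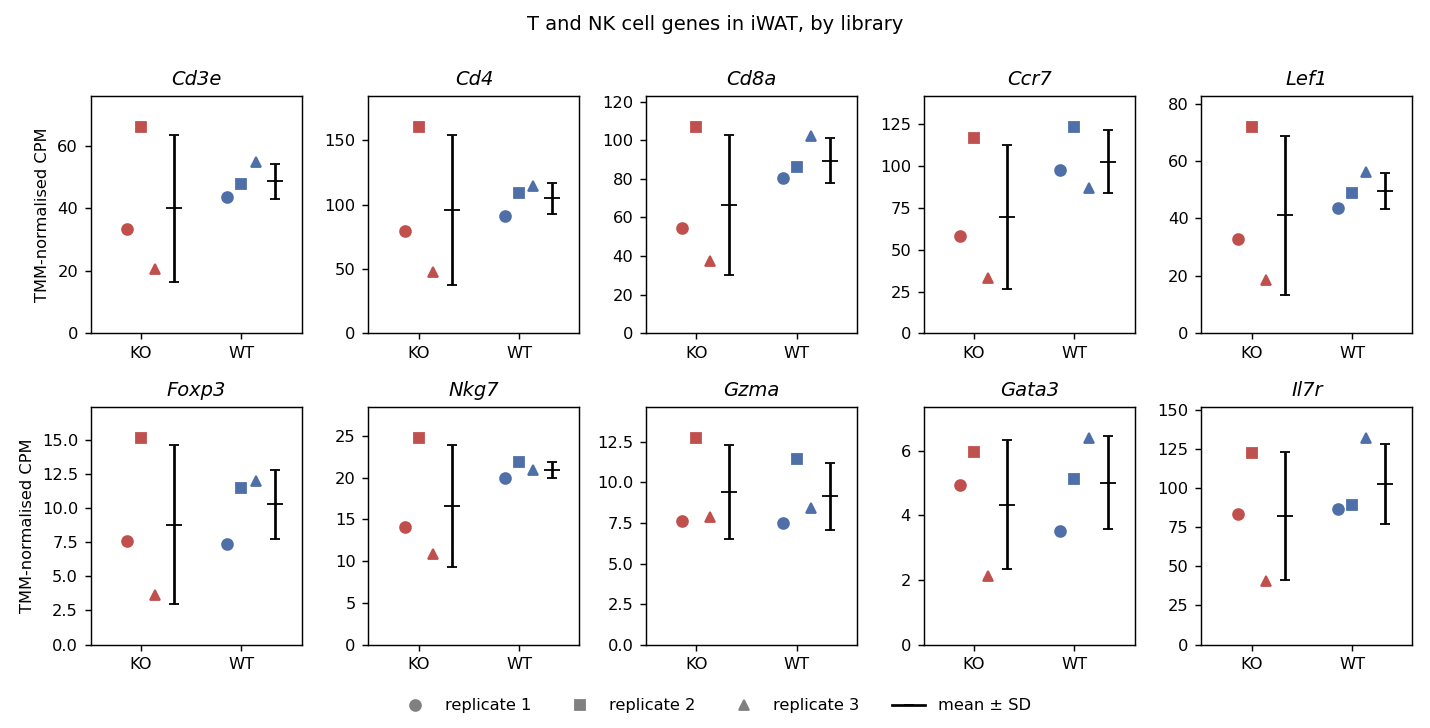
TMM-normalised CPM (y axis, from 0) of each of the 10 genes in the 3 KO and 3 WT iWAT libraries (x axis); symbols mark the replicate number and the bar beside each group is the mean with its SD (n = 3). KO replicate 2 is the highest KO library in every panel, and KO replicate 3 the lowest in every panel except Gzma.

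Cd3e (ENSMUSG00000032093), which encodes the CD3 epsilon chain that every T cell receptor needs for signalling, served as the measure of T cells as a whole. It had 33.2, 66.1 and 20.6 CPM in KO replicates 1, 2 and 3, against 43.5, 47.8 and 54.7 CPM in WT replicates 1, 2 and 3. KO replicate 2 was above all WT libraries and the other KO libraries were below all of them. The mean was 40.0 ± 23.5 CPM in KO and 48.6 ± 5.62 CPM in WT (SD, n = 3 each), and the log2 fold change was -0.28 (SE 0.37, 95% interval -1.15 to 0.58, edgeR adjusted p = 0.662). On the linear scale that interval runs from 0.451-fold to 1.50-fold. In bulk tissue, fewer cells of a type and less RNA per cell cannot be told apart.

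Cd4 (ENSMUSG00000023274) encodes the co-receptor of helper and regulatory T cells, and Cd8a (ENSMUSG00000053977) the alpha chain of the co-receptor of cytotoxic T cells. Cd4 had 79.6, 161 and 47.8 CPM in KO replicates 1, 2 and 3, against 91.3, 109 and 114 CPM in WT replicates 1, 2 and 3 (log2 fold change -0.13, SE 0.39, edgeR adjusted p = 0.858). Cd8a had 54.5, 107 and 37.5 CPM in KO replicates 1, 2 and 3, against 80.2, 85.9 and 102 CPM in WT replicates 1, 2 and 3 (log2 fold change -0.43, SE 0.35, edgeR adjusted p = 0.474). Both genes followed the order of Cd3e in KO and in WT. The ratio of Cd4 to Cd8a counts was 1.46, 1.50 and 1.274 in KO replicates 1, 2 and 3 and 1.14, 1.271 and 1.12 in WT replicates 1, 2 and 3, so that the lowest KO value lay just above the highest WT value. This ratio was not tested, and how often other gene pairs separate in this way was not computed.

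Among the naive T cell genes, Ccr7 (ENSMUSG00000037944) encodes the chemokine receptor that draws naive T cells and mature dendritic cells into lymph nodes, and Lef1 (ENSMUSG00000027985) a transcription factor of naive T cells. Ccr7 had 58.2, 117 and 33.1 CPM in KO replicates 1, 2 and 3, against 97.9, 124 and 86.8 CPM in WT replicates 1, 2 and 3. Its log2 fold change of -0.57 (SE 0.41, 95% interval -1.52 to 0.38, edgeR adjusted p = 0.426) was the most negative of the 10. KO replicate 2 was inside the WT range and the other KO libraries were below it. Lef1 had 32.9, 72.0 and 18.4 CPM in KO replicates 1, 2 and 3, against 43.6, 49.0 and 56.1 CPM in WT replicates 1, 2 and 3 (log2 fold change -0.27, SE 0.43, edgeR adjusted p = 0.717). For Lef1, KO replicate 2 was above every WT library.

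Foxp3 (ENSMUSG00000039521), the lineage-defining transcription factor of regulatory T cells, had 7.57, 15.2 and 3.67 CPM in KO replicates 1, 2 and 3, against 7.40, 11.5 and 12.0 CPM in WT replicates 1, 2 and 3. The highest KO library was 4.14 times the lowest, the widest range among the members, against 1.62 times within WT. The log2 fold change was -0.22 (SE 0.46, 95% interval -1.30 to 0.86, edgeR adjusted p = 0.788). Foxp3 counts amounted to 0.0951, 0.0945 and 0.0767 of the Cd4 counts in KO replicates 1, 2 and 3, and to 0.0810, 0.105 and 0.105 in WT replicates 1, 2 and 3, with overlap.

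The cytotoxic members varied least within KO. Nkg7 (ENSMUSG00000004612), a membrane protein of cytotoxic granules in T and NK cells, had 14.1, 24.8 and 10.9 CPM in KO replicates 1, 2 and 3, against 19.95, 21.9 and 20.9 CPM in WT replicates 1, 2 and 3 (log2 fold change -0.33, SE 0.28, edgeR adjusted p = 0.493). KO replicate 2 was above all WT libraries and the other KO libraries below. Gzma (ENSMUSG00000023132), the granule protease granzyme A, had 7.63, 12.8 and 7.89 CPM in KO replicates 1, 2 and 3, against 7.50, 11.5 and 8.46 CPM in WT replicates 1, 2 and 3. Its KO and WT ranges nearly coincided (log2 fold change 0.045, SE 0.26, 95% interval -0.56 to 0.65, edgeR adjusted p = 0.931). The highest KO library was 1.67 times the lowest for Gzma and 2.27 times for Nkg7, against 2.82 to 4.14 times for the other 8 members.

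Gata3 and Il7r are shared between T cells and innate lymphoid cells. Gata3 (ENSMUSG00000015619), a transcription factor of type 2 helper T cells and group 2 innate lymphoid cells, was the scarcest member, with 4.93, 5.96 and 2.11 CPM in KO replicates 1, 2 and 3, against 3.51, 5.13 and 6.40 CPM in WT replicates 1, 2 and 3 (log2 fold change -0.21, SE 0.40, edgeR adjusted p = 0.765). Il7r (ENSMUSG00000003882), the alpha chain of the receptor for the survival cytokine IL-7, had 83.7, 122.7 and 40.3 CPM in KO replicates 1, 2 and 3, against 86.5, 89.4 and 132 CPM in WT replicates 1, 2 and 3 (log2 fold change -0.32, SE 0.37, edgeR adjusted p = 0.617). In both genes KO replicate 3 was below every other library, and the other KO libraries were inside or just below the WT range.

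Levels of different genes were compared per kilobase of the longest coding transcript in GENCODE M21. In KO libraries the order by mean CPM per kilobase was Ccr7 (35.1 ± 21.8), Cd4 (30.9 ± 18.7), Cd3e (27.3 ± 16.1), Il7r (23.2 ± 11.6), Cd8a (21.2 ± 11.6), Nkg7 (18.8 ± 8.25), Lef1 (11.8 ± 7.96), Gzma (9.46 ± 2.90), Foxp3 (2.30 ± 1.53) and Gata3 (1.35 ± 0.620; SD, n = 3). All neighbours in this order overlapped in KO except Gzma and Foxp3. In WT libraries it was the same, with Ccr7 at 52.0 ± 9.57, Cd4 at 33.7 ± 3.87, Cd3e at 33.3 ± 3.84, Il7r at 29.0 ± 7.24, Cd8a at 28.6 ± 3.67, Nkg7 at 23.7 ± 1.12, Lef1 at 14.2 ± 1.81, Gzma at 9.18 ± 2.08, Foxp3 at 2.68 ± 0.657 and Gata3 at 1.56 ± 0.451 CPM per kilobase (SD, n = 3). Within WT, Cd4, Cd3e, Il7r and Cd8a overlapped as neighbours, as did Foxp3 and Gata3, while Ccr7, Nkg7, Lef1 and Gzma overlapped neither neighbour. The places of Cd3e, Lef1 and Il7r depend on the length used. With the union of all annotated exons, 4.08 kb in place of 1.46 kb, the WT level of Cd3e was 11.9 CPM per kilobase, below Nkg7 at 22.9. That of Lef1, with 8.79 kb in place of 3.48 kb, was 5.64 CPM per kilobase, below Gzma at 9.09. That of Il7r, with 4.66 kb in place of 3.54 kb, was 22.0 CPM per kilobase, below Cd8a at 24.6 and just below Nkg7.

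The wide KO range was shared by nearly all members. In 9 of the 10, KO replicate 2 was the highest KO library, replicate 1 the next and replicate 3 the lowest; Gzma was the exception, with replicate 3 slightly above replicate 1. Among all genes tested this order held for 29.4%. The SD of log2 CPM was larger in KO than in WT for all 10 members and for 65.4% of all genes tested, and its median over the members was 0.83 in KO and 0.22 in WT, against 0.25 and 0.17 over all genes tested. Relative to the WT mean on the log2 scale, Cd3e was at -0.55, 0.44 and -1.24 in KO replicates 1, 2 and 3 and between -0.16 and 0.17 in WT.

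**Figure D2:**
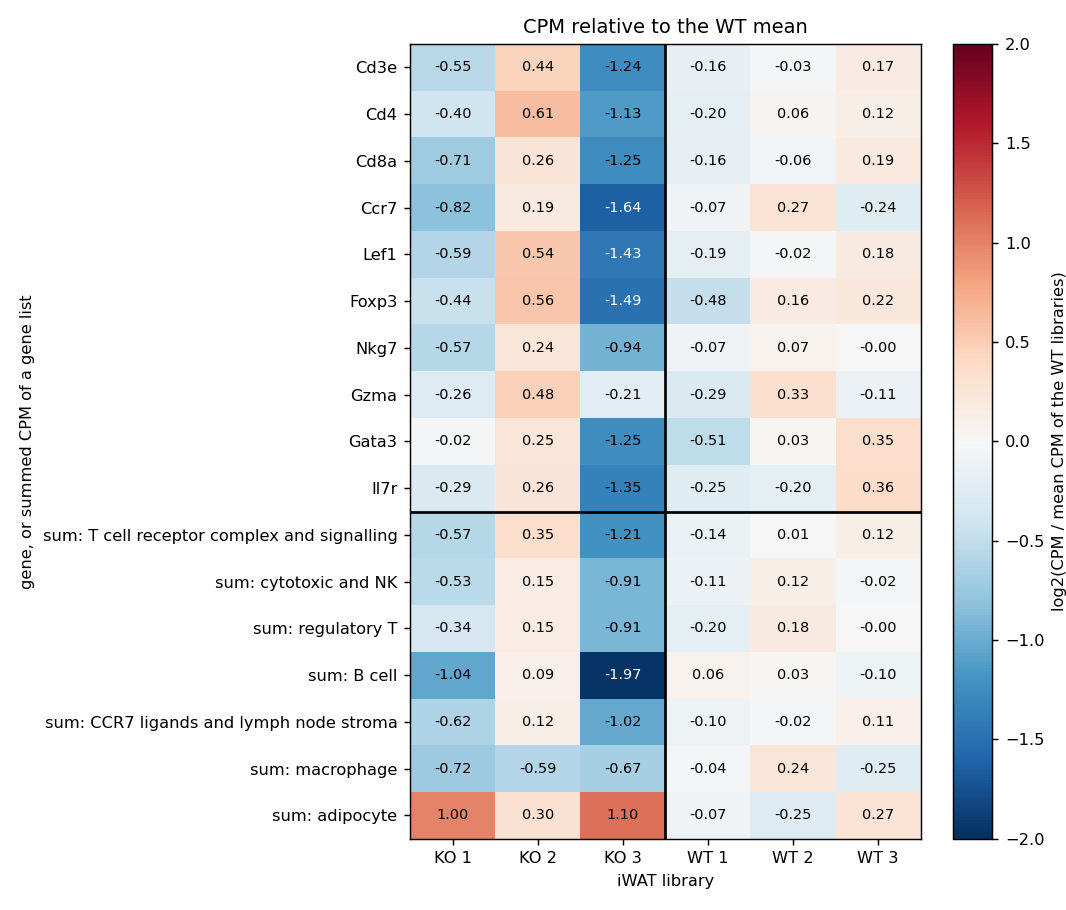
Colour and printed values give log2 of CPM over the mean of the 3 WT libraries, for the 10 genes and for the summed CPM of 7 gene lists (rows) in each iWAT library (columns). KO replicate 3 is blue in nearly every lymphoid row, at -1.24 for Cd3e and -1.97 for the B cell sum, while KO replicate 2 lies at 0.44 for Cd3e and 0.094 for the B cell sum.

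The comparison therefore turned on single libraries. Without KO replicate 2, 5 of 10 members, Cd3e, Cd8a, Ccr7, Lef1 and Nkg7, were lower in KO (edgeR, adjusted p = 0.0302, 0.0146, 0.0224, 0.0334 and 0.0187), and the median log2 fold change of the members was -0.74. In that fit 10.9% of all genes tested were called lower, 14.5% higher and 25.3% in either direction. The size was -0.80 on the log2 scale for Cd3e, a 0.576-fold level, and -1.12 for Ccr7, a 0.462-fold level. Cd4, Foxp3, Gata3, Il7r and Gzma did not pass there, with adjusted p-values of 0.0604, 0.117, 0.427, 0.173 and 0.573 in the same test. Without KO replicate 3, 7 of 10 log2 fold changes were positive, none passed, and the median was 0.056, so that the direction of the members' difference also rests on that library; 0.018% of all genes were called there. Leaving out KO replicate 1, WT replicate 1, WT replicate 2 or WT replicate 3 called 0 members, against 0.006%, 0.006%, 0.006% and 2.01% of all genes. The other fits, listed with their shares of all genes called, also called 0 members: DESeq2 size factors and non-robust estimation (1.12% each), library totals alone (1.07%), no filter on low counts (4.14%), the replicate block (7.35%) and an adjusted p of 0.10 (8.27%).

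**Figure D3:**
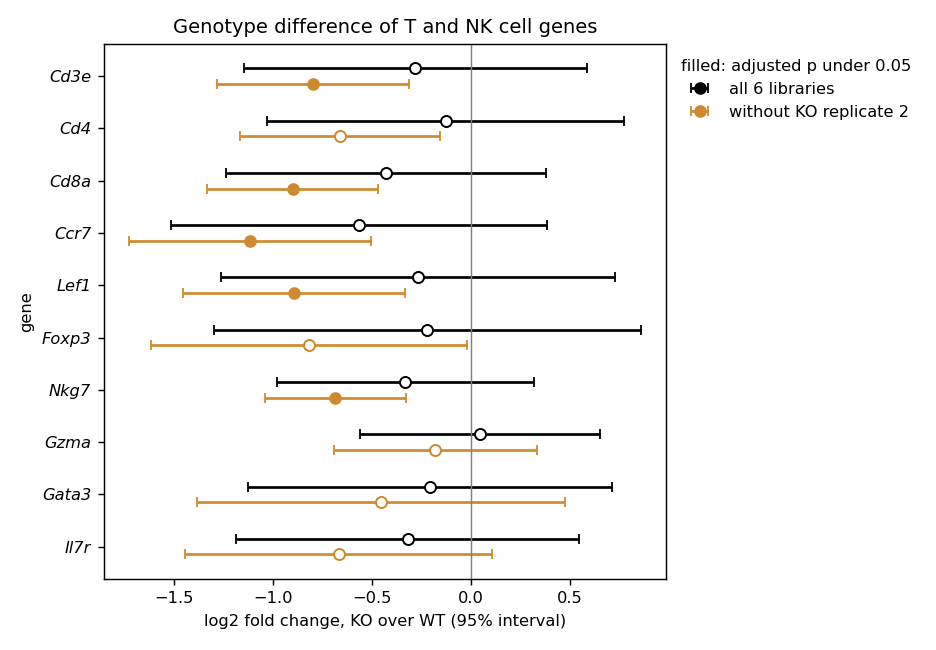
Log2 fold change of KO over WT with its 95% interval from edgeR (x axis) for each gene (y axis), from all 6 libraries in black and without KO replicate 2 in orange; filled points had an adjusted p under 0.05. Every black interval includes 0, and Cd3e, Cd8a, Ccr7, Lef1 and Nkg7 are filled in orange.

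The next comparison asked whether the subsets moved apart from T cells as a whole, using the log2 ratio of each gene to Cd3e inside a library, which needs no scaling between libraries (0.5 was added to each count). Lef1 counts nearly equalled Cd3e counts, with a ratio of -0.015, 0.12 and -0.16 in KO replicates 1, 2 and 3 and 0.0018, 0.036 and 0.039 in WT replicates 1, 2 and 3. The KO minus WT difference of the mean ratio was 0.14 for Cd4, -0.12 for Cd8a, -0.30 for Ccr7, -0.044 for Lef1, 0.021 for Foxp3, 0.022 for Nkg7, 0.47 for Gzma, 0.15 for Gata3 and 0.0080 for Il7r. Exact two-sided permutation tests over the 3 KO and 3 WT libraries gave p = 0.1 to 1, where 0.1 is the smallest p the design allows, and 0.9 to 1 after adjustment over the 9 ratios. The Cd4 ratio alone did not overlap, with 1.26, 1.28 and 1.21 in KO and 1.07, 1.19 and 1.06 in WT (exact permutation test, p = 0.1, adjusted p = 0.9), higher in 3 of 3 KO libraries. The share of all genes whose ratio to Cd3e did not overlap was not computed, so this separation is not read as a result about Cd4.

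Of the 9 genes, Gzma had the widest range of this ratio within KO, 0.99 on the log2 scale. The ratio of Gzma to Cd3e was -2.12, -2.37 and -1.38 on the log2 scale in KO replicates 1, 2 and 3, against -2.53, -2.06 and -2.69 in WT replicates 1, 2 and 3. The ratio was highest in KO replicate 3, the KO library with the least Cd3e, and lowest among KO in replicate 2, which had the most. Nkg7 had the same order within KO, at -1.23, -1.41 and -0.92 in KO replicates 1, 2 and 3, against -1.12, -1.12 and -1.39 in WT. Cd8a had this order too, at 0.72, 0.70 and 0.86 in KO replicates 1, 2 and 3, against 0.88, 0.85 and 0.90 in WT, so it was not particular to the granule genes. Cd3e is the denominator, so the order largely restates that these genes varied less within KO than Cd3e. The SD of log2 CPM within KO was 0.41 for Gzma, 0.60 for Nkg7 and 0.77 for Cd8a, against 0.84 for Cd3e. The Gzma to Nkg7 count ratio was 0.541, 0.515 and 0.724 in KO and 0.376, 0.523 and 0.405 in WT.

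**Figure D4:**
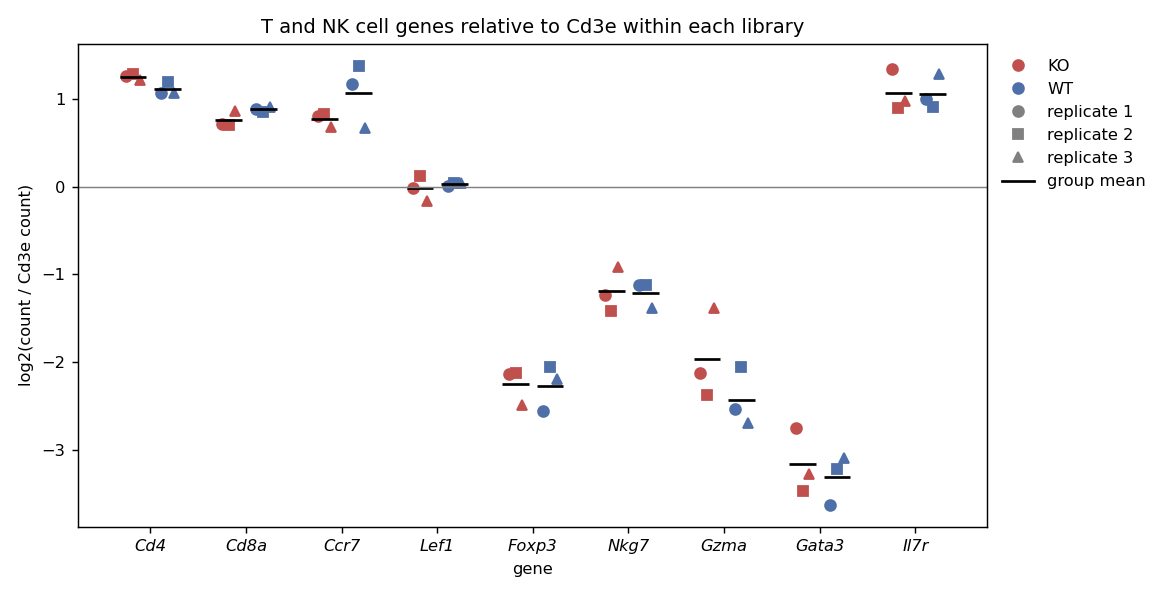
Log2 ratio of each gene's count to the Cd3e count of the same library, with 0.5 added to both (y axis), for 9 genes (x axis) in KO (red, left) and WT (blue, right); symbols mark replicates and lines group means. KO and WT overlap for all genes except Cd4, and Gzma in KO replicate 3 lies above the rest at -1.38.

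The genes closest to Cd3e in profile were those with the smallest root mean square difference in mean-centred log2 CPM over the 6 libraries, among 13329 tested genes with a symbol and a mean of at least 2 CPM. They were Zap70, the kinase that binds phosphorylated CD3 chains (0.0373), Rab37 (0.0413), Fam78a (0.0414), Tcf7, a partner factor of Lef1 in naive T cells (0.0491), and Trbc2, a constant region of the receptor beta chain (0.0518). Among the members, Cd8a ranked 17, Cd4 21 and Lef1 22 in this likeness. Nkg7, Il7r and Foxp3 ranked 178, 202 and 249. Ccr7, Gata3 and Gzma ranked 644, 748 and 2740.

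Promoter sequences of 8 of the 10 members were in the RefSeq table for GRCm38.p6, which spans 250 bases before to 50 after each start site. Those of Cd3e, the yardstick of the ratios, and of Nkg7 and Gzma, the cytotoxic members, are shown because Cd3e and Gzma moved least alike. Matches on either strand to an ETS motif (CAGGAAG) or a RUNX motif (TGTGGT), named for transcription factor families of lymphocytes, are in capitals; no matches overlap.
Cd3e (chr9:45009562-45009861, minus strand): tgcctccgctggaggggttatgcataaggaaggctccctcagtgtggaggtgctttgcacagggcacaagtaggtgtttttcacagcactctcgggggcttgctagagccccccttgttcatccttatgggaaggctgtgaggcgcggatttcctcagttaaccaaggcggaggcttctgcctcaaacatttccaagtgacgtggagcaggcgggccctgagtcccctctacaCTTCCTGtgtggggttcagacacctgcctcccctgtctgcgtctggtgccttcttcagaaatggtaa
Nkg7 (chr7:43436888-43437187, plus strand): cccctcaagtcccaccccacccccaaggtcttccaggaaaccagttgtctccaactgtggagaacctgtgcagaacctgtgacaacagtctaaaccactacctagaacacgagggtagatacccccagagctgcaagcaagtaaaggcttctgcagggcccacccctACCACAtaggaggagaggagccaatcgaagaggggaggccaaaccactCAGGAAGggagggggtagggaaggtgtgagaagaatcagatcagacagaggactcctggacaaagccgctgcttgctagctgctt
Gzma (chr13:113100932-113101231, minus strand): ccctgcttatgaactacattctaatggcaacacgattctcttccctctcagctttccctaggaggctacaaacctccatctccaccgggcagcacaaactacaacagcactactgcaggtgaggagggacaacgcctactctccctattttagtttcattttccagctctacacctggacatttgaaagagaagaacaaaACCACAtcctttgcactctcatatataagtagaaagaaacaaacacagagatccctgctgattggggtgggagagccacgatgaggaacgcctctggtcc
The Cd3e window held 1 ETS match beginning at position -17 relative to the start site. The Nkg7 window held an ETS match at -35 and a RUNX match at -83, and the Gzma window a RUNX match at -50. RUNX letters were not particular to the cytotoxic members. Of the windows not shown, that of Il7r held an ETS match at -48 and a RUNX match at 3. For Lef1, 1 window held an ETS match at -14, and those of Cd8a, Foxp3 and Gata3 held neither motif. Among 32851 promoter windows of this length, 13.3% held the ETS letters and 16.8% the RUNX letters. A TCF/LEF motif (CTTTGA, in 16% of windows) and a GATA motif (AGATAA, in 11.2%) were also searched. They had no match in the 3 windows shown, which says only that those letters are not there.

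The wider T cell machinery had the same pattern as the members. Of 22 genes of the receptor complex and its signalling, 0 passed in edgeR (0 with an unadjusted p under 0.05), all 22 had negative log2 fold changes with a median of -0.30, and all 22 had KO replicate 2 above replicate 1 above replicate 3. Lck, the kinase that starts receptor signalling, had 65.0, 126 and 41.1 CPM in KO replicates 1, 2 and 3, against 91.1, 109 and 119 CPM in WT (edgeR adjusted p = 0.467). Cd3g, the gamma chain of CD3, averaged 57.6 ± 31.9 CPM in KO and 70.2 ± 5.36 CPM in WT, and the adhesion molecule Cd2 averaged 58.5 ± 35.1 CPM in KO and 78.8 ± 2.81 CPM in WT (SD, n = 3 each). Without KO replicate 2, 18 of the 22 were lower in KO in edgeR, against 10.9% of all genes tested.

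Among 9 naive and lymph node homing genes 0 passed in edgeR (0 with an unadjusted p under 0.05), with a median log2 fold change of -0.30. Tcf7, a transcription factor of naive T cells, averaged 116 ± 67.7 CPM in KO and 143 ± 11.9 CPM in WT (SD, n = 3 each; edgeR adjusted p = 0.644). S1pr1, an exit receptor that endothelial cells also express, had 213 ± 17.6 CPM in KO and 199 ± 15.2 CPM in WT (SD, n = 3 each) and did not share the KO order. Among 11 regulatory T cell genes 0 passed in edgeR (0 with an unadjusted p under 0.05), with a median of -0.44. Il2ra, the IL-2 receptor alpha chain, had 16.3 ± 5.40 CPM in KO and 23.0 ± 2.49 CPM in WT (SD, n = 3 each; edgeR adjusted p = 0.257). Without KO replicate 2, 6 of 9 and 3 of 11 were lower in KO, against 10.9% of all genes tested. In that fit 1 of the 9 naive-list genes, Igfbp4, was higher, against 14.5% of all genes tested.

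Of 22 tested cytotoxic and NK genes 0 passed in edgeR (1 with an unadjusted p under 0.05), 18 were negative and the median was -0.29. Ccl5, a chemokine of effector lymphocytes, had 55.8, 99.1 and 33.0 CPM in KO replicates 1, 2 and 3, against 66.9, 82.5 and 75.2 CPM in WT (edgeR adjusted p = 0.670). Il2rb, the shared IL-2 and IL-15 receptor chain, averaged 59.6 ± 31.0 CPM in KO and 69.9 ± 3.86 CPM in WT (SD, n = 3 each). Without KO replicate 2, 6 of the 22 were lower, against 18 of 22 receptor genes and 10.9% of all genes tested. The difference between the lists was not tested. Ifng, the interferon of these cells, had 1 to 10 counts per library and was not tested.

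Gamma-delta T cells and group 2 innate lymphoid cells were followed through lists of 11 genes each. The type 2 cytokines Il5 and Il13 and the gamma-delta cytokine Il17a had 0 to 2 counts in every library and were not tested. Of 9 tested gamma-delta genes and 6 tested group 2 innate lymphoid genes 0 passed in edgeR (1 in each with an unadjusted p under 0.05), and the medians were -0.030 and -0.36. Il1rl1, the IL-33 receptor of regulatory T cells, group 2 innate lymphoid cells and mast cells, had 8.95, 7.78 and 8.50 CPM in KO replicates 1, 2 and 3, against 81.1, 74.4 and 12.7 CPM in WT replicates 1, 2 and 3. All KO libraries were below all WT libraries, but WT replicate 3 was close to KO, and the gene did not pass (log2 fold change -2.74, SE 0.61, edgeR adjusted p = 0.0665). Its profile was unlike that of Gata3 or Foxp3, in which KO replicate 2 was not below WT.

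In the pathway of Il7r, 0 of 13 genes passed in edgeR (2 with an unadjusted p under 0.05) and the median log2 fold change was -0.22. Of the 13, 9 were negative, against 55.8% of all genes tested, and the rest were positive. The KO and WT libraries did not overlap for 5 of the 13, against 28.3% of all genes tested. Il2rg, the common gamma chain that pairs with Il7r, had 128, 229 and 76.6 CPM in KO replicates 1, 2 and 3, against 236, 256 and 200.4 CPM in WT (edgeR adjusted p = 0.296). Jak1, its kinase, averaged 349 ± 78.2 CPM in KO and 469 ± 50.8 CPM in WT, and Stat5b, which Jak kinases activate, 91.7 ± 7.05 CPM in KO and 95.5 ± 2.95 CPM in WT (SD, n = 3 each).

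Most markers of B cells and of lymph node stroma followed the KO order of the members. The summed level of 12 B cell genes was 814, 1782 and 427 CPM in KO replicates 1, 2 and 3, against 1745, 1704 and 1559 CPM in WT. All 12 kept the KO order of Cd3e, and 0 passed in edgeR with all libraries (0 with an unadjusted p under 0.05). In edgeR without KO replicate 2, all 12 were called lower, against 10.9% of all genes tested. The summed level of the 11 listed CCR7 ligand and lymph node stroma genes was 678, 1135 and 515 CPM in KO replicates 1, 2 and 3, against 976, 1032 and 1124 CPM in WT, with 0 past the test in edgeR and 4 with an unadjusted p under 0.05. Of the 11, 9 kept the KO order of Cd3e, against 29.4% of all genes tested, and Glycam1 and Ccl21a were among the 9. In 5 of the 11 the KO and WT libraries did not overlap, against 28.3% of all genes tested. Glycam1, a mucin-like protein made by lymph node vessels, had 93.5, 249 and 77.7 CPM in KO, against 176, 209 and 172 CPM in WT. Ccl21a, a ligand of Ccr7, had 247, 435 and 174 CPM in KO, against 215, 233 and 382 CPM in WT, a value that is uncertain because near-identical copies of the gene exist.

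Adipocyte and muscle transcripts were lowest within KO in replicate 2, the library highest in T cell genes. Summed over 9 adipocyte genes the level was 27455, 16956 and 29459 CPM in KO replicates 1, 2 and 3, against 13124, 11552 and 16624 CPM in WT, and summed over 8 skeletal muscle genes it was 3790, 626 and 3453 CPM in KO, against 15.6, 8.21 and 11.8 CPM in WT. All 8 muscle genes passed in edgeR as higher in KO, and 0 of 9 adipocyte genes passed (8 with an unadjusted p under 0.05). The macrophage sum of 10 genes did not follow the KO order of the T cell genes, at 2161, 2360 and 2238 CPM in KO, against 3465, 4210 and 2999 CPM in WT. Every KO sum was below every WT sum, and 9 of the 10 log2 fold changes were negative. In edgeR 0 of the 10 passed, and 9 had an unadjusted p under 0.05, against 22.6% of all genes tested. For 8 of the 10 the KO and WT libraries did not overlap, against 28.3% of all genes tested. The part of lymph node, B cell, adipocyte or muscle RNA in the members' spread was not tested.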

How the data were processed

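The iWAT libraries were made with a stranded poly(A) kit, per the labels' protocols. In the table the authors deposited, values are unscaled estimated counts for each gene in each of the 6 libraries; between 9.53% and 11.1% of values per library were not whole. Which quantifier made it is not given. The submitters' processing notes name fastp, featureCounts, GRCm38 and GRCm39 for the series without saying which belong to iWAT. Symbols came from GENCODE M21 and matched 26372 of 33200 identifiers (79.4%).

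Counts were rounded and tested with edgeR 4.0.16 in R 4.3.3 (quasi-likelihood F-test, TMM scaling, filterByExpr, robust, no covariate, Benjamini-Hochberg over 16656 genes, two-sided, adjusted p of 0.05). The standard error was the log2 fold change divided by the square root of F, and 95% intervals used its t distribution. Alternatives were DESeq2 1.42.0, limma-voom (limma 3.58.1), other scaling, no filter, estimation without robustness, the replicate number as a block, and omission of single libraries. The tests were checked on simulated counts. CPM used the totals of tested genes times the TMM factor. A floor of 3 counts was 0.147 to 0.167 CPM of library totals and covers counting error only.

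Members and gene lists were chosen with earlier results of these data known. From each list the 4 genes with the highest mean CPM, and up to 4 past the test, could be named, besides the members, Nrep and the 5 genes most like Cd3e. Il5, Il13, Il17a and Ifng are named for their low counts, chosen after their values were seen. Some genes of the lists, and ratios that need them, are not reported here.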

Additional observations from a re-analysis of the deposited data

How the results depend on the processing

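Over all genes, the count of 171 past the test became 1823 in DESeq2, 16 in limma-voom, 1370 with no filter on low counts and 1225 with the replicate block, and lay between 1 and 4221 when a library was left out. The count of 0 members past the test held in every alternative except without KO replicate 2, where it was 5 (0 to 5 over the libraries left out), and it was also 0 at an adjusted p of 0.10, a threshold added after the data had been seen. Correlations of same-numbered libraries' deviations from the group means across genes were -0.0077, 0.20 and 0.11 for numbers 1, 2 and 3, and KO replicates 2 and 3 correlated best with their own number, while KO replicate 1 correlated best with WT replicate 3 (0.14). Since not every pair was over 0.1, the numbers are not treated as pairs, and with the replicate block 0 members passed (1 with an unadjusted p under 0.05).

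Of 130 refitted log2 fold changes of the members, 114 kept their direction and side of the threshold, 5 passed it and 11 changed sign. Leaving out 1 library gave -0.80 to 0.031 for Cd3e, -0.66 to 0.20 for Cd4, -0.90 to -0.15 for Cd8a, -1.12 to -0.23 for Ccr7, -0.89 to 0.082 for Lef1, -0.82 to 0.15 for Foxp3, -0.69 to -0.10 for Nkg7, -0.18 to 0.24 for Gzma, -0.46 to 0.12 for Gata3 and -0.67 to 0.0072 for Il7r. Scaling by library totals alone put the all-gene median at -0.19 (log2), against -0.057, and Gzma at -0.072; the cause was not tested. Of 72 ratios to Cd3e, 11 changed sign, all with 1 library left out: Lef1 lay at -0.12 to 0.028, Foxp3 at -0.12 to 0.14, Nkg7 at -0.11 to 0.14, Gata3 at -0.060 to 0.30 and Il7r at -0.13 to 0.12. The Gzma ratio kept its sign, at 0.18 to 0.68.

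Precision was limited by 3 libraries per group and, for Gata3 and Foxp3, by counts as low as 38 and 66.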

Other observations

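Relative to Cd3e, 1 of 2 B cell transcripts compared here was lower in every KO library than in every WT library, a measure added after the data had been seen and given with no test. The ratio of Ms4a1, which encodes CD20, to Cd3e was 3.07, 2.80 and 2.09 in KO replicates 1, 2 and 3, against 4.69, 3.84 and 3.56 in WT replicates 1, 2 and 3. The ratio of Cd79a to Cd3e overlapped between the groups, at 3.46, 4.32 and 3.01 in KO, against 5.83, 5.54 and 3.98 in WT. KO replicate 2, whose Cd3e and summed B cell levels were both above those of every WT library, had a lower Ms4a1 to Cd3e ratio than every WT library. How many of all genes have a ratio to Cd3e that separates the groups was not computed, so the Ms4a1 ratio is not read as a result about B cells.

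Glycam1 and Ccl21a, made by lymph node vessels and stroma, were set beside Cd3e in the same way. The Glycam1 ratio was 2.82, 3.76 and 3.77 in KO, against 4.05, 4.37 and 3.15 in WT, and the Ccl21a ratio 7.44, 6.57 and 8.42 in KO, against 4.94, 4.88 and 6.998 in WT; both overlapped.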
